A study of Rattus norvegicus with 2 samples.

Results

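The genes described here are Wif1, Sfrp2, Fzd8, Nkd2 and Wisp2, which act in or downstream of Wnt signalling. They were chosen by symbol and make up 5 of the 2325 entries of the deposited expression table, with 1 entry per gene. The study compared cultured mesenchymal stem cells of rat bone marrow (bmMSCs, the plastic-adherent stromal cells of the marrow) by RNA sequencing. The cells came from Sprague-Dawley rats and are labelled as passage 3 to 5 in both groups. The untransfected group (1 library) served the submitters as negative control. The transfected group (1 library) was collected 10 days after introduction of Pdx1 and Ngn3, transcription factors of pancreatic and endocrine development. The labels give neither the age or number of animals nor the way the genes were introduced. Transfection and the introduced genes cannot be told apart here, because the control received neither. No collection day is given for the control, so a difference in time in culture cannot be told apart from them either.

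Wnt proteins are secreted ligands that bind Frizzled receptors and Lrp co-receptors at the cell surface. In the canonical branch, Dishevelled then relays the signal, beta-catenin is spared from degradation, and it joins TCF/LEF factors on target genes. Cells restrain the signal outside the membrane with proteins that bind Wnt, and inside with proteins that bind Dishevelled. In bone marrow stromal cells this pathway is known for its part in the choice between bone and fat cell fates.

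Each library's total was implied by its counts, gene lengths and RPKM (reads scaled by gene length and by the library's total). It was 7800831 reads in the untransfected and 7415094 in the transfected library, and 21.7% and 20.2% of these reads fell on the listed genes. A gene was called higher or lower when the ratio of its scaled reads was at least 2 in either direction and the exact 95% interval of that ratio excluded 1. The table holds only genes that the authors had already selected for change, so 100% of its entries were called, 63.5% of them higher and 36.5% lower. That the members were called is therefore no finding about them, and direction, size and level are what they add. Reads of Pdx1, named in the labels as introduced, numbered 0 in the untransfected and 565 in the transfected library. The sources used here do not tell reads of an introduced copy from those of the cells' own gene. Neurog3 was not analysed here. Other scalings shifted all log2 ratios by -0.78 (TMM) and -1.20 (median of ratios), and left 46.4% and 37.6% of called entries on the higher side. All intervals cover counting error only. With 1 library per group, the spread between cultures is unknown, and p-values are left out.

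Of the 5 members, 2 were higher in transfected cells (Sfrp2 and Fzd8) and 3 were lower (Wif1, Nkd2 and Wisp2). In untransfected cells the order of the levels per length was Nkd2, Wisp2, Wif1, Fzd8 and Sfrp2, and the 95% intervals of neighbours in that order did not overlap. In transfected cells it was Sfrp2, Fzd8, Nkd2, Wif1 and Wisp2. There the intervals of Wif1 and Wisp2 overlapped, while those of the other neighbours did not. Sfrp2 thus had the lowest level of the 5 in untransfected cells and the highest in transfected cells. In bulk RNA, fewer cells expressing a gene and less of its RNA per cell cannot be told apart.

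**Figure D1:**
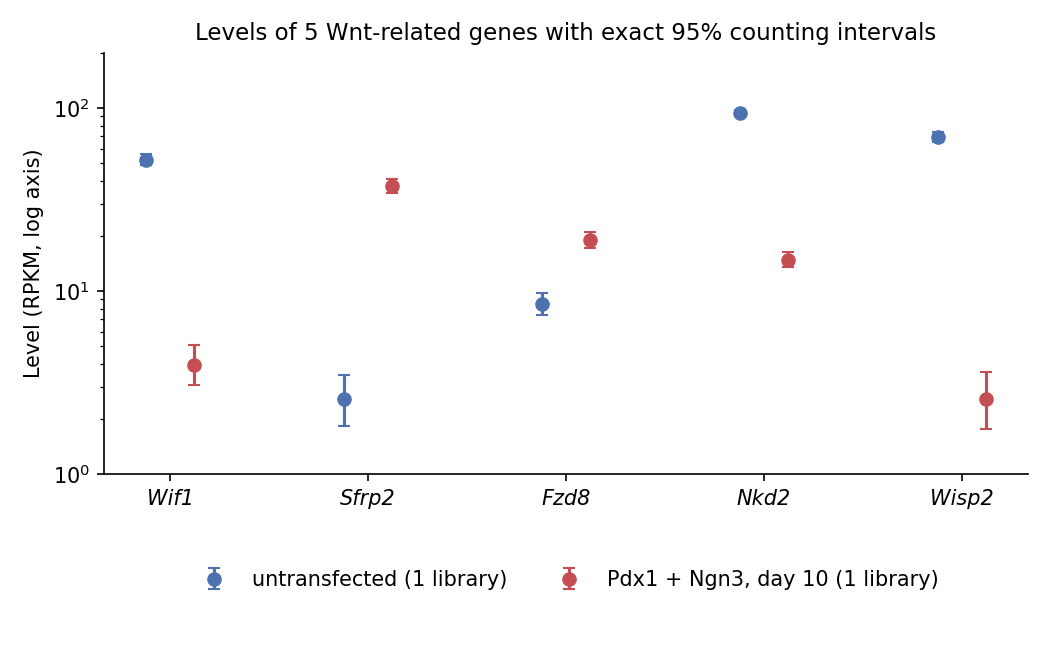
Level of each member (vertical log axis, RPKM) in the untransfected library (blue) and the library taken 10 days after Pdx1 and Ngn3 (red), with exact 95% Poisson intervals. Wif1, Nkd2 and Wisp2 lie between 52.3 and 94.6 RPKM untransfected and between 2.56 and 14.8 RPKM transfected, whereas Sfrp2 goes from 2.56 to 37.5 RPKM and Fzd8 from 8.50 to 19.0 RPKM.

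Promoter windows from RefSeq (build GRCr8, 250 bases before to 50 bases after the annotated start) matched 4 of the 5 genes; Wisp2, whose RefSeq symbol is Ccn5, had no match. They are shown for the antagonists that moved in opposite directions and for Nkd2. Capitals mark the letters searched on both strands. These were the TCF/LEF sequence CTTTG followed by AA, AT, TA or TT, the E-box CAGATG (a kind bound by Ngn3 and related factors) and the homeodomain core TAAT (the kind bound by Pdx1). The motifs do not overlap each other in these windows.
Wif1 (chr7:58433329-58433628, plus strand): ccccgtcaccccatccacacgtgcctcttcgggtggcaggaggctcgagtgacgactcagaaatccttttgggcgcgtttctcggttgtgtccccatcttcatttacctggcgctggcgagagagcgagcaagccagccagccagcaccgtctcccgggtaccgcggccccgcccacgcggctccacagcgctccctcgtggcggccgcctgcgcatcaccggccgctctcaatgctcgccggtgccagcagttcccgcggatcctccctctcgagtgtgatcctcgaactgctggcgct
Sfrp2 (chr2:171387286-171387585, plus strand): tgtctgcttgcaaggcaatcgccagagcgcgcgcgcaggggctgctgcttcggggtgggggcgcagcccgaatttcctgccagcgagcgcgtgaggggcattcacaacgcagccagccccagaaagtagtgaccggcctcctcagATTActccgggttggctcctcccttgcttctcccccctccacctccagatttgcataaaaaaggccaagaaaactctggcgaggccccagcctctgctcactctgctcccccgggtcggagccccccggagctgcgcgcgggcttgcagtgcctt
Nkd2 (chr1:31272282-31272581, plus strand): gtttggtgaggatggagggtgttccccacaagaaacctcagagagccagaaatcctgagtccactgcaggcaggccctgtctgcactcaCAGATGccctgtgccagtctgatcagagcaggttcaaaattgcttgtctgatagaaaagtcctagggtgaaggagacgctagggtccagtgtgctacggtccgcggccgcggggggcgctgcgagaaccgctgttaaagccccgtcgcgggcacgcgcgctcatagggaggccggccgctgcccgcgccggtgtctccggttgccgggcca

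Wif1 had none of these letters in its window, and neither did Fzd8. Sfrp2 had 1 TAAT core, read on the opposite strand as ATTA, beginning 105 bases before the start. Nkd2 had 1 CAGATG, beginning 161 bases before the start. Over all 33469 windows of 300 bases, 17.1% held a TCF/LEF sequence, 16.6% CAGATG and 60.6% TAAT. Among the 17 matched windows of Wnt pathway genes in the table, 0 held a TCF/LEF sequence, 6 CAGATG and 5 TAAT. The member windows were rich in G and C, at 67.0% for Wif1, 65.0% for Sfrp2, 65.3% for Fzd8 and 62.7% for Nkd2, against a median of 51.7%. They held 19 to 32 CpG dinucleotides, against a median of 7. None of these shares, those of AT-rich letters such as TAAT included, was adjusted for this base composition. Shares over the other entries of the table are not given here, and binding of any factor was not tested.

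Wif1, Wnt inhibitory factor 1, is a secreted protein that binds Wnt ligands directly and keeps them from their receptors. Its entry (gene 114557) refers to a cDNA of 2182 bases, with the coding part at bases 315 to 1412. It had 891 reads in untransfected and 64 reads in transfected cells, or 52.3 RPKM (interval 49.0 to 55.9) and 3.96 RPKM (3.05 to 5.05). The ratio was 13.2-fold lower in transfected cells (interval 10.3 to 17.3), which placed Wif1 at rank 59 of 849 lower entries by size. Among all entries its level went from rank 260 to rank 1716.

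Sfrp2, secreted frizzled-related protein 2, carries a cysteine-rich domain like that of the Frizzled receptors and binds Wnt with it. It is usually classed as an antagonist, although its effect on Wnt signalling is known to depend on context. Its entry (gene 310552, cDNA of 2001 bases, coding bases 210 to 1097) went from 40 untransfected to 557 transfected reads. These are levels of 2.56 RPKM (interval 1.83 to 3.49) and 37.5 RPKM (34.5 to 40.8). Sfrp2 was 14.6-fold higher (interval 10.6 to 20.7), at rank 134 of 1476 higher entries. The width of this interval comes mainly from the 40 untransfected reads.

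The change in balance between these antagonists does not depend on how the libraries are scaled, because each library's own ratio cancels its total. Per length, Wif1 was 20.4 times as abundant as Sfrp2 in untransfected cells, and Sfrp2 was 9.49 times as abundant as Wif1 in transfected cells. The ratio of Sfrp2 to Wif1 thus differed 194-fold between the libraries (exact conditional interval 126 to 299). Of the fixed group of secreted Wnt-binding proteins, 3 were in the table: Wif1, Sfrp2 and Sfrp4. Their summed level was 58.3 RPKM (counting SE 1.84) in untransfected and 42.5 RPKM (SE 1.68) in transfected cells, 1.37-fold lower (interval 1.24 to 1.51). Wif1 made up 89.8% of this sum in untransfected and 9.30% in transfected cells, and Sfrp2 4.40% and 88.3%. By this scaling the sum thus differed less than each of its parts. It was lower by each scaling tried, with a ratio of 0.426 with TMM and 0.317 with median of ratios in place of 0.730. Both of these shift all log2 ratios down and could only lower it, so the size of the difference depends on the scaling. Only genes of the fixed group that the authors selected for change enter the sum. The other members of that group were not analysed here.

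**Figure D2:**
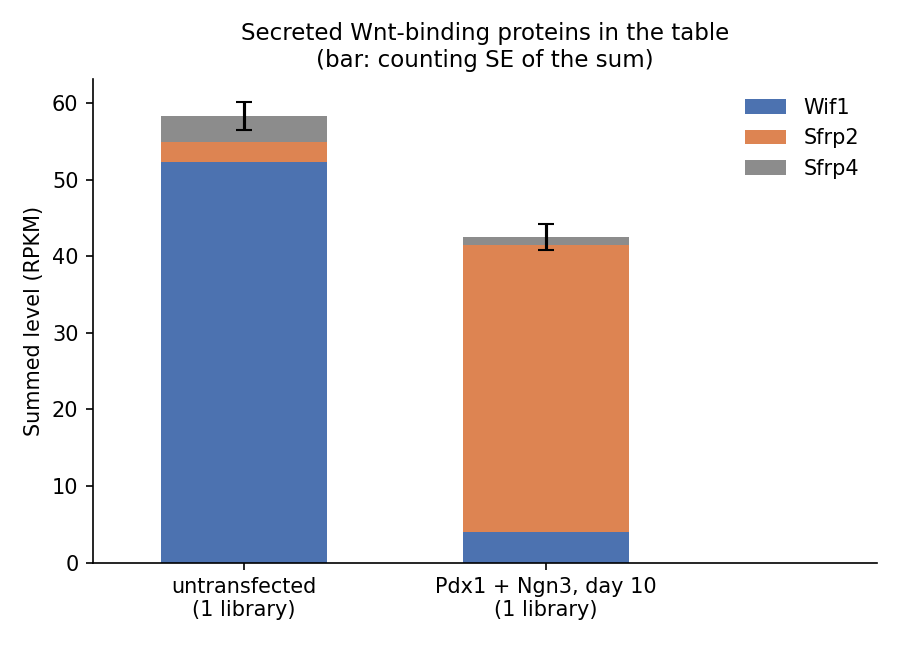
Summed level (RPKM) of the secreted Wnt-binding proteins in the table, stacked by gene, for the untransfected library and the library taken 10 days after Pdx1 and Ngn3; the black bar is the counting SE of the sum. Wif1 fills 89.8% of the untransfected column and Sfrp2 88.3% of the transfected one, while the sums are 58.3 and 42.5 RPKM.

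Sfrp4, a relative of Sfrp2 with the same kind of Wnt-binding domain, was on the lower side. It had 76 and 22 reads, or 3.36 and 1.02 RPKM, and was 3.28-fold lower (interval 2.02 to 5.54). The ratio of Sfrp2 to Sfrp4 differed 48.1-fold between the libraries (interval 26.2 to 89.2). The other listed antagonists were higher. Igfbp4, a binding protein of insulin-like growth factors that also restrains Wnt receptors, was 4.68-fold higher (interval 3.64 to 6.08, 76 and 338 reads). Apcdd1, a membrane inhibitor of Wnt signalling, went from 0 to 28 reads. With the untransfected library set to a floor of 3 reads, it was 9.82-fold higher, and the lower bound of the exact interval was 7.47. In all, 5 of the 17 antagonists in the Wnt list were in the table, 3 of them higher and 2 lower.

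Fzd8, frizzled 8, is a multi-pass membrane receptor for Wnt ligands. Its entry (gene 364754, cDNA of 3015 bases, coding bases 244 to 2298) went from 200 untransfected to 425 transfected reads. The levels were 8.50 RPKM (interval 7.37 to 9.77) and 19.0 RPKM (17.2 to 20.9). Fzd8 was 2.24-fold higher (interval 1.89 to 2.66), at rank 1250 of 1476 higher entries, so near the lower end of what the authors' selection admits. Its call rests on the scaling. The log2 ratio of 1.16 became 0.38 with TMM, below the minimum ratio of 2, and -0.041 with median-of-ratios scaling, and neither was called. Both scalings were computed on genes selected for change, most of them higher, so they cannot decide the direction of Fzd8.

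Fzd3, another Frizzled receptor, had 79 and 159 reads and was 2.12-fold higher (interval 1.61 to 2.81), with the same dependence: its log2 ratio of 1.08 became 0.31 with TMM and -0.12 with median of ratios. The ratio of Fzd8 to Fzd3 differed by 1.06-fold between the libraries (interval 0.757 to 1.47), so a difference between them was not detectable at this depth. Lgr4, a receptor for R-spondins that strengthens Wnt responses, was 2.73-fold lower (interval 2.39 to 3.14, 820 and 285 reads). Rspo4, a secreted R-spondin, had 11 and 71 reads, a ratio of 6.79 (interval 3.58 to 14.2). The ligand Wnt16 went from 0 to 20 reads, 7.01-fold higher by the same floor (exact lower bound 5.19). Of 22 receptors and co-receptors in the list 3 were in the table, as were 1 of 19 ligands and 1 of 5 agonists.

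Nkd2, naked cuticle homolog 2, binds Dishevelled inside the cell and limits Wnt signalling there. It is also known to help carry a growth factor precursor, TGF-alpha, to the cell surface. Its entry (gene 308068, cDNA of 4024 bases, coding bases 187 to 1563) held the most untransfected reads of the 5, 2968, against 443 in transfected cells. The level went from 94.6 RPKM (interval 91.2 to 98.0) to 14.8 RPKM (13.5 to 16.3). Nkd2 was 6.37-fold lower (interval 5.76 to 7.05), the narrowest relative interval of the members, at rank 166 of 849 lower entries.

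Other intracellular members of the pathway went both ways. Dact2, which like Nkd2 binds Dishevelled, had 4 and 59 reads and was 15.5-fold higher (interval 5.75 to 58.8). Even so it stayed below Nkd2 in level, at 2.90 against 14.8 RPKM in transfected cells. Vangl2, a planar polarity membrane protein, went from 0 to 14 reads, 4.91-fold higher by that floor (exact lower bound 3.49). Daam1 and Daam2, formins that connect Dishevelled to the actin cytoskeleton, were 2.55-fold and 2.22-fold lower. Tcf7l2, a TCF factor of the nucleus, was 2.08-fold higher (interval 1.66 to 2.61, 121 and 239 reads), and its log2 ratio of 1.06 became -0.15 with median-of-ratios scaling.

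Wisp2, WNT1 inducible signaling pathway protein 2 (also Ccn5), is a secreted matricellular protein of the CCN family. It was named for its induction by Wnt1 and lacks the C-terminal domain of its relatives. Its entry (gene 29576, cDNA of 1741 bases, coding bases 262 to 1014) went from 949 untransfected to 33 transfected reads. The level went from 69.9 RPKM (interval 65.5 to 74.5) to 2.56 RPKM (1.76 to 3.59). This was the largest difference of the 5 members, 27.3-fold lower (interval 19.3 to 39.9), at rank 15 of 849 lower entries. Among all entries its level went from rank 189 to rank 1897.

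The other CCN genes in the table, 3 of 6 with Wisp2 included, were also lower, but by less. Ctgf, connective tissue growth factor, had 22784 and 7138 reads and was 3.03-fold lower (interval 2.95 to 3.12). Nov, another matricellular member, had 748 and 232 reads and was 3.06-fold lower (interval 2.64 to 3.57). The ratio of Ctgf to Wisp2 differed 9.01-fold between the libraries (interval 6.36 to 13.2) and that of Nov to Wisp2 8.92-fold (6.08 to 13.4), whereas that of Nov to Ctgf differed by less than the counting error (interval 0.849 to 1.15). Wisp2 and Nov had similar levels in untransfected cells, 69.9 and 65.0 RPKM, and stood at 2.56 and 21.2 RPKM in transfected cells.

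The target group of the Wnt list holds genes known as Wnt targets in other tissues, 6 of 15 in the table with Wisp2 included. They were lower in 6 of 6 cases, against 36.5% of all entries. Many of them also answer to growth factors and other signals. The list files each gene under 1 role, so any targets filed under another role are not counted here. All 10 higher genes of the list, Apcdd1 among them, are filed under other roles, so the 6 of 6 rests on this filing. Ccnd1, cyclin D1, was at 59.3 and 12.3 RPKM, 4.81-fold lower (interval 4.29 to 5.41). The angiogenic factor Vegfa was 4.52-fold lower and Plaur, the urokinase receptor, 3.72-fold lower. Fosl1, an AP-1 subunit, was 3.29-fold lower, and Myc, a growth-promoting transcription factor, 2.65-fold lower (173 and 62 reads). The median log2 ratio of the 6 was -2.04, against 1.24 over all entries. All 6 were also lower with TMM and with median-of-ratios scaling, but so were 53.6% and 62.4% of called entries. Both scalings shift every log2 ratio down, so a lower gene could only stay lower, and this adds no support. The median log2 ratio over all entries was 0.46 and 0.038 with them.

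Over the whole Wnt list of 124 genes, 22 were in the table, 10 of them higher and 12 lower. The share on the higher side was 45.5%, against 63.5% of all entries, and the median log2 ratio was -1.25 with genes at 0 reads set to the floor. With TMM and with median-of-ratios scaling, 7 were higher and 12 lower, a higher share of 36.8% against 46.4% and 37.6% of called entries, so the gap to the whole table depends on the scaling and is small under median of ratios. Without the 5 members, 8 were higher and 9 lower. The table holds only changed genes, so the other 102 genes of the list were not analysed here and nothing follows about them. Fzd3, Fzd8 and Tcf7l2 were the 3 genes whose sign turned under a scaling tried.

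**Figure D3:**
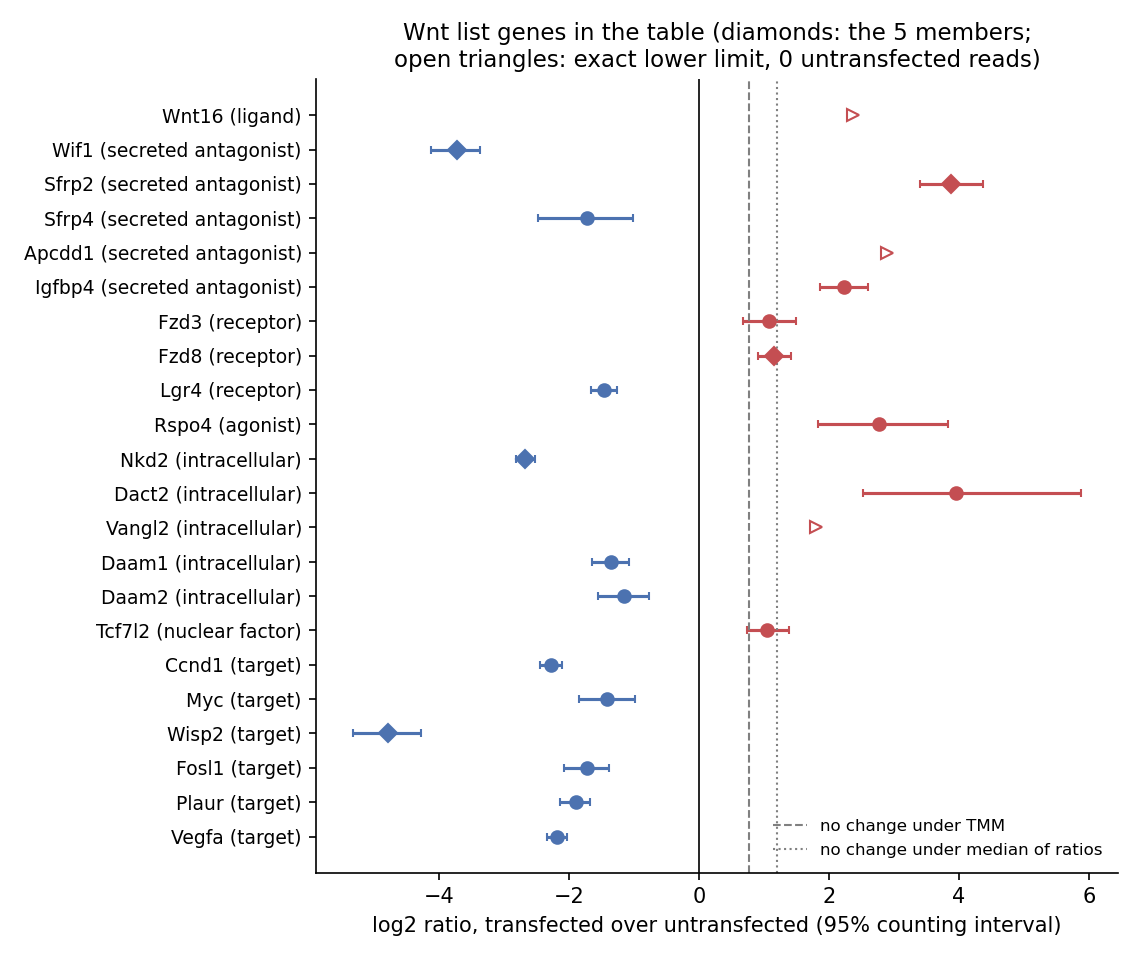
Log2 ratio of transfected over untransfected reads (horizontal axis) for the 22 Wnt list genes in the table, ordered by role, with exact 95% counting intervals; diamonds are the 5 members and open triangles mark the exact lower limit where the untransfected library had 0 reads. Wisp2 lies farthest to the left at -4.77, the 6 target genes all lie left of 0, and Fzd3, Fzd8 and Tcf7l2 lie close to the dotted line that marks no change under median-of-ratios scaling.

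The members differed from each other in size as well as direction. For each of the 10 pairs, the exact interval of the change in their within-library ratio excluded 1 (counting error only). Among the lower genes, the difference was 2.07 times as large for Wisp2 as for Wif1 (interval 1.32 to 3.28) and 2.08 times as large for Wif1 as for Nkd2 (1.58 to 2.77). Among the higher genes it was 6.55 times as large for Sfrp2 as for Fzd8 (4.52 to 9.66). The farthest pair was Sfrp2 and Wisp2, whose ratio differed 400.4-fold (244 to 661).

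Genes with the most similar pair of levels were sought by distance on log2 RPKM in both libraries, among the 1630 entries matched to a rat gene. This likeness is over 2 libraries only. The nearest to Sfrp2 were Itga4, an integrin subunit (2.64 and 36.4 RPKM, distance 0.062), Gbp5, a guanylate binding protein (2.42 and 35.5 RPKM), and Chrd, the BMP antagonist chordin (2.78 and 32.6 RPKM). Nearest to Wisp2 were Cspg4, the pericyte proteoglycan NG2 (91.3 and 3.93 RPKM, distance 0.73), Tinagl1, a basement membrane protein (86.1 and 1.59 RPKM), and Wif1 (distance 0.76). For Wif1 they were Fabp3, a fatty acid binding protein (37.5 and 4.20 RPKM, distance 0.49), Npl, an enzyme of sialic acid breakdown (42.7 and 5.40 RPKM), and Wisp2. Wif1 and Wisp2 were thus among each other's 3 nearest genes. Nkd2 had Fads2, a fatty acid desaturase (110 and 16.9 RPKM, distance 0.29), Gadd45a and Lsp1. Fzd8 had Fmr1 (8.51 and 18.8 RPKM, distance 0.016), Pik3r2 and LOC100360982. The distances were shortest for Fzd8, which lies where entries are dense, and longest for Wif1 and Wisp2, which lie where they are sparse.

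**Figure D4:**
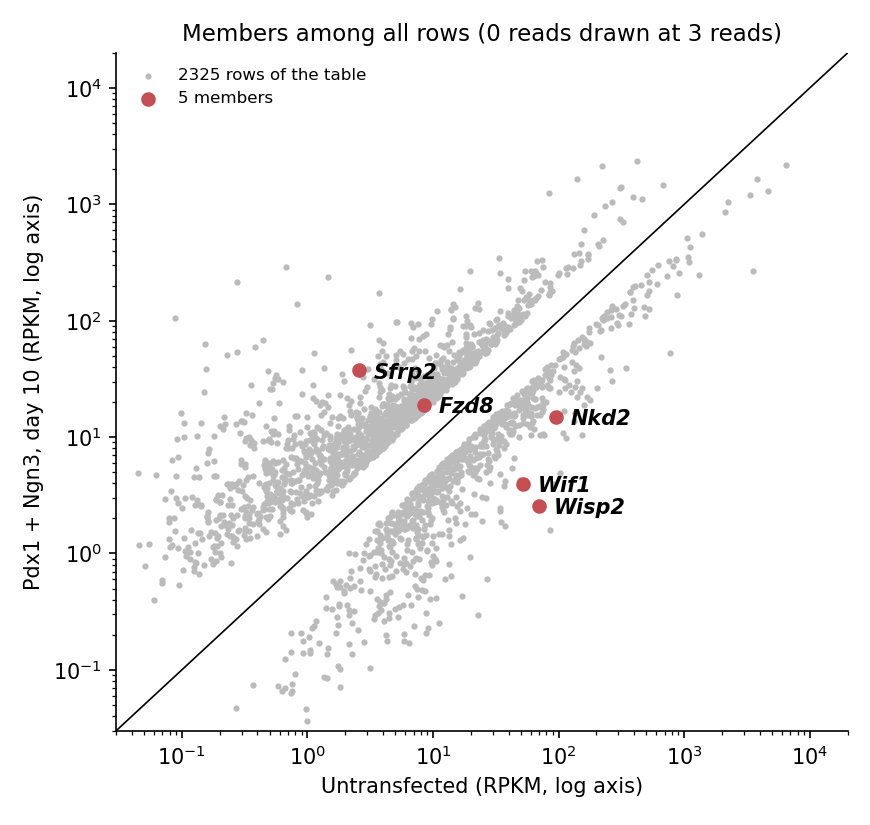
Level in transfected against untransfected cells (both log axes, RPKM) for the 2325 entries of the table (grey, with 0 reads drawn at 3 reads) and the 5 members (red); the line marks equal levels, and the empty band along it is where the authors' selection left no gene. Fzd8 sits at the inner edge of the upper cloud, Sfrp2 farther out, and Wif1 and Wisp2 in the sparse outer part of the lower cloud.

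Markers of the labelled cells and of other cell types moved alongside these genes. Of 15 mesenchymal stromal markers 8 were in the table, 4 higher and 4 lower, against 63.5% and 36.5% of all entries. Their summed level was 2304 and 1007 RPKM (2.29-fold lower). The markers named here were picked after their values were seen. Thy1, a defining marker, had levels of 1101 untransfected and 322 RPKM transfected, and Pdgfra at 25.1 and 64.7 RPKM. Of 7 smooth muscle and pericyte markers 6 were in the table, 5 of them lower, against 36.5% of all entries. Their summed level was 12176 and 3587 RPKM (3.39-fold lower). Most of it came from Tagln (6522 and 2186 RPKM) and Acta2 (4648 and 1298 RPKM). This sum includes Acta2, whose count is uncertain because other actins are nearly identical to it. The lower members Wif1, Nkd2 and Wisp2 moved in the same direction as this sum, by larger folds. The stromal and blood cell sums and Egfl7 were lower as well, so this direction is not particular to smooth muscle markers. Within the smooth muscle and pericyte list, Cnn1 (14.7-fold) and Cspg4 (23.3-fold) were lower by folds of the size seen for Wif1 and Wisp2. Acta2 (3.58-fold), Myh11 (3.28-fold) and Tagln (2.98-fold) were lower by less, and Rgs5 was at 0 untransfected and 39 transfected reads. Of 17 blood cell markers 4 were in the table, 2 higher and 2 lower, with a summed level of 12.4 and 5.22 RPKM. Cd4 (0 untransfected and 23 transfected reads) and Cd68 (5 and 26) were higher, and Cd74 (96 and 5) and RT1-Db1 (32 and 1) were lower. Of 6 endothelial markers only Egfl7 was in the table, at 5.30 and 1.57 RPKM. The part of these cell types in the levels of the 5 members was not tested.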

How the data were processed

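RNA from 1 library per group was sequenced on an Illumina GA instrument after oligo(dT) selection and random priming, per the labels' protocols. The submitters' processing notes name build rn4; the sources used here give no aligner, counting tool or handling of shared reads. The authors deposited read counts (whole numbers per gene, unscaled) and RPKM computed from them, with 0.001 written for 0 reads. They also deposited the log2 ratio of the RPKM values and a p-value and false discovery rate from an unnamed test of 1 library against 1. Every deposited p-value was left unused. The smallest absolute log2 ratio in the authors' deposited table was 1.00 and the largest false discovery rate 0.000996, so it is a selection.

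From the files, library totals were recomputed (1 entry gave another total), then ratios with exact Clopper-Pearson intervals and levels with exact Poisson intervals at 95%. Amplified reads carried no molecular identifiers, so intervals treat copies as independent. A count of 0 was set to a floor of 3 reads. Ratios between genes used exact conditional odds ratio intervals, over 10 member pairs and 7 pairs of related genes, of which 5 excluded 1. The interval of the summed level used a normal approximation on the log scale. The planned design needed no test; calculations were tested on simulated data. Tools were Python 3.11.15, scipy 1.17.1, pandas 2.3.3 and edgeR 4.0.16 (TMM factors only). Alternatives were other scalings, log2(RPKM + 1), a 3-fold minimum, a 30-read minimum, a 99% interval and an ontology-based list. The rule for named genes took the members, the listed Wnt and CCN genes and the 3 nearest entries to each member. Named outside it were Pdx1, as a check of the labels, some genes of the fixed cell type marker lists, and a few ontology genes picked with their values in view. The members and lists were chosen with earlier results of these data known.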

Additional observations from a re-analysis of the deposited data

How the results depend on the processing

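Wif1, Sfrp2, Nkd2 and Wisp2 kept their direction and their call under each of the 7 alternatives run for them, with log2 ratios from -4.93 to -3.43, 2.67 to 3.98, -3.87 to -2.57 and -5.97 to -4.32. Fzd8 kept its call under 4 of 7; its log2 ratio was 0.38 with TMM and -0.041 with median-of-ratios scaling, and at 1.16 it missed a 3-fold minimum. The higher entries numbered 734 with TMM, 512 with median of ratios and 856 at a 3-fold minimum, and the lower ones 445 at that minimum. Both scalings were computed on genes selected for change and can only remove higher calls from this table. That Wif1, Nkd2 and Wisp2 kept their lower calls under both was therefore fixed in advance. The higher Wnt genes numbered 18 with the ontology-based list and 7 with TMM or median of ratios, in place of 10. The ratio of the summed Wnt-binding proteins was 0.426 with TMM and 0.317 with median of ratios, alternatives chosen after seeing the data. No paired analysis was possible because each group has 1 library. Depth limits Wisp2 and Wif1 in transfected cells (33 and 64 reads) and Sfrp2 in untransfected cells (40 reads).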

Other observations

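The deposited gene ontology text or gene name mentions Wnt in 28 entries, of which 18 were higher and 10 lower. The higher share, 64.3%, is near the 63.5% of all entries. These entries shared 10 genes with the 22 of the symbol list, which is 45.5% of the symbol list and 35.7% of the ontology entries. Nkd2 is not among them, since its deposited process terms are cell surface receptor signalling and vesicle transport. The following genes were chosen after their values were seen. Dab2, an endocytic adaptor that also binds Dishevelled and Axin, was at 5404 transfected against 984 untransfected reads, 5.78-fold higher (interval 5.40 to 6.19). Jup, plakoglobin, a relative of beta-catenin at cell junctions, was 3.01-fold higher, and Cdh2, N-cadherin, which binds catenins at the membrane, 4.86-fold higher. Bambi, a pseudoreceptor that dampens TGF-beta and BMP signals, was 2.61-fold lower (96 and 35 reads). Sall1, a zinc finger factor of organ development, had 9 and 320 reads and was 37.4-fold higher (interval 19.5 to 82.6).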
